A study of Oryctolagus cuniculus with 4 samples.

Results

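The proteasome and ubiquitin ligase genes were examined in spatial RNA sequencing of rabbit supraspinatus, a rotator cuff muscle. Members were the genes whose name begins with PSMA to PSMG plus a digit (proteasome), UBE2 (ubiquitin-conjugating enzymes, or E2), FBXL, FBXO or FBXW plus a digit (F-box), or TRIM plus a digit. The rule found 118 of 21139 features, namely 34 proteasome, 11 E2, 38 F-box and 35 TRIM genes. Because 9803 features carry no name of their own, genes of these families without a name are missed. There were features for 5 of 7 constitutive alpha subunits of the 20S core, 4 of 7 beta subunits and 3 of 6 ATPases of the 19S cap. PSMC3IP and PSME3IP1 match the rule by spelling and are named after a binding partner, not subunits.

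The 4 Visium sections came from the posterior distal muscle belly of female New Zealand White rabbits aged 6 months, 1 section per condition, and are named here fresh (healthy, not stored), stored healthy (kept frozen for 6 years), 2-week and 16-week (both kept for 6 years as well). The last 2 muscles had their tendon cut (tenotomy) 2 or 16 weeks before collection. The stored healthy and 16-week muscles are labelled 14R and 14L, the 2-week muscle 6L and the fresh muscle 211R, and whether 14R and 14L are both sides of the same animal is not said. Values therefore describe 4 sections, with no replicates and no test, and condition and section cannot be told apart. The same holds for condition and animal, except between 14R and 14L if they share an animal, where side takes its place. A spot covers several cells, so fewer cells of a type and less RNA per cell cannot be told apart either.

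Ubiquitin is passed from an activating enzyme (E1) to an E2 and then, with the help of a ligase (E3), to a target protein, which the 26S proteasome unfolds and cuts. F-box proteins are the target-binding part of SCF ligases, and most TRIM proteins are RING ligases in their own right. In skeletal muscle, 2 of these E3 genes, FBXO32 (atrogin-1) and TRIM63 (MuRF1), are the classic markers of atrophy, while immune cells and interferon-exposed cells exchange proteasome subunits to form the immunoproteasome.

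Counts were unique molecular identifiers (UMIs), each a captured molecule, and a level is the number of UMIs per 100000 non-mitochondrial UMIs of a section. Non-mitochondrial UMIs numbered 3557949 in fresh, 6366290 in stored healthy, 2699937 in 2-week and 3102285 in 16-week muscle, over 1950, 2440, 854 and 1726 spots. Mitochondrial genes held 49.3% and 49.2% of all UMIs in fresh and stored healthy muscle but 33.8% and 34.6% after tenotomy, which is why they were left out of the denominator. Intervals are exact Poisson (levels), exact binomial (ratios, and shares of spots) at 95% and cover counting error only. Fast and slow muscle markers were abundant in every section, with summed levels of 8414 and 4177 in fresh, 4529 and 10070 in stored healthy, 13561 and 4789 in 2-week and 2126 and 8407 in 16-week muscle. The sections shared 602 to 1603 spot barcodes with each other, as the barcodes belong to printed positions.

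Together the members took 0.810% of non-mitochondrial UMIs in fresh, 0.702% in stored healthy, 0.769% in 2-week and 0.717% in 16-week muscle. Of the 118 members, 68 held at least 50 UMIs over the 4 sections, 6 of which held fewer without their highest section. The other 50 held fewer than 50, and 16 of these had no UMI at all. A section was set against the stored healthy section by the log2 ratio of levels, and a gene was counted as higher or lower from a 1.5-fold difference. All 3 comparisons share the stored healthy section. The median of all 5280 genes with at least 50 UMIs was itself shifted, at a log2 ratio of 0.24 at 2 weeks, 0.54 at 16 weeks and 0.09 in the fresh section, so member values are given beside it.

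Among the 6 muscle atrophy ligases with a feature, FBXO32 was 3.31-fold and TRIM63 4.15-fold above stored healthy muscle at 16 weeks, while TRIM55, FBXO40 and FBXO21 lay below the median gene there. FBXO32 (ENSOCUG00000005112) encodes the F-box protein atrogin-1. It had 71 UMIs in fresh, 90 in stored healthy, 64 in 2-week and 145 in 16-week muscle, or levels of 2.00, 1.41, 2.37 and 4.67. The 16-week interval of 3.94 to 5.50 lay above the intervals of the other sections. The fresh interval overlapped those of 2-week and stored healthy muscle, but the 2-week interval lay above that of stored healthy muscle. The log2 ratio to stored healthy was 1.73 (1.34 to 2.12) at 16 weeks, 0.75 (0.26 to 1.22) at 2 weeks and 0.50 (0.03 to 0.96) in the fresh section.

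TRIM63 (ENSOCUG00000013564) encodes MuRF1, a RING ligase of the sarcomere. It had 31, 46, 27 and 93 UMIs in the fresh, stored healthy, 2-week and 16-week sections, or levels of 0.871, 0.723, 1.0 and 3.0. Again the 16-week section was high, with an interval of 2.42 to 3.67, and the other 3 overlapped. Its log2 ratio was 2.05 (1.53 to 2.60) at 16 weeks against 0.47 (-0.27 to 1.19) at 2 weeks and 0.27 (-0.44 to 0.96) in the fresh section. Relative to the median gene, the 16-week log2 ratios were 1.19 for FBXO32 and 1.51 for TRIM63, and 1.41 and 1.73 when the 50 most abundant nuclear genes were taken out of the denominator.

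**Figure D1:**
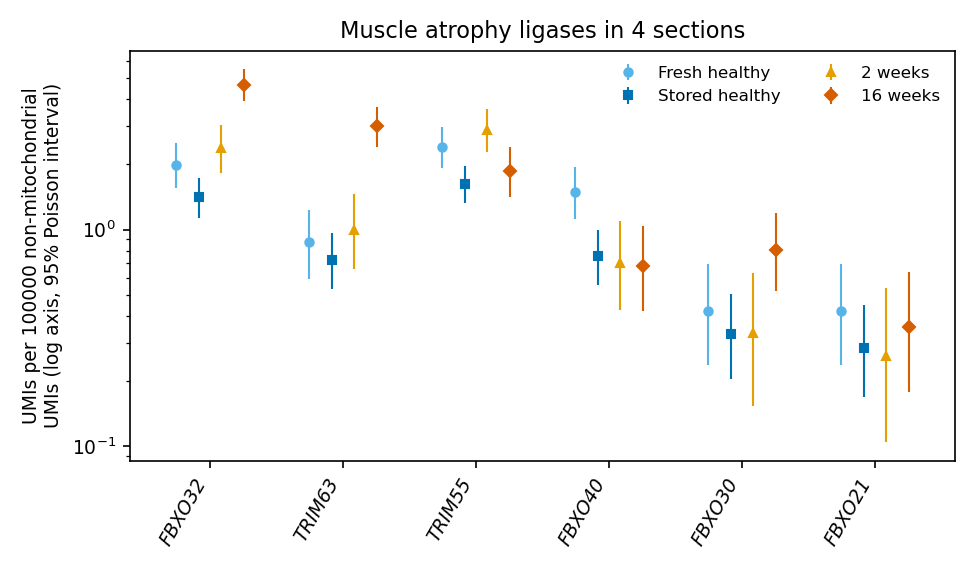
Levels of the 6 muscle atrophy ligases that have a feature, in UMIs per 100000 non-mitochondrial UMIs on a log axis, with points for the 4 sections and bars for 95% Poisson intervals. FBXO32 (4.67) and TRIM63 (3.0) lie above the other sections at 16 weeks, while TRIM55 is highest at 2 weeks (2.89) and FBXO40 in the fresh section (1.49).

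Of the other atrophy ligases, FBXO30 was also highest at 16 weeks, though its interval overlapped that of the fresh section. TRIM55, FBXO40 and FBXO21 were highest in other sections. TRIM55, the related sarcomeric ligase MuRF2, had 86, 103, 78 and 58 UMIs in the fresh, stored healthy, 2-week and 16-week sections, or levels of 2.42, 1.62, 2.89 and 1.87. It was highest at 2 weeks, with a log2 ratio of 0.84 (0.39 to 1.27), and at 16 weeks its ratio was 0.21 (-0.28 to 0.69). FBXO30 (MUSA1), an SCF subunit of denervated muscle, had 15, 21, 9 and 25 UMIs, with a 16-week ratio of 1.29 (0.39 to 2.20). FBXO40, a muscle F-box protein that targets the insulin receptor substrate IRS1, had 53, 48, 19 and 21 UMIs and stood highest in the fresh section, at a ratio of 0.98 (0.39 to 1.58) against -0.16 (-0.97 to 0.61) at 16 weeks. FBXO21 (SMART) had 15, 18, 7 and 11 UMIs, and its intervals overlapped in all sections. TRIM54, TRIM32 and TRIM72, the remaining 3 of the 9 ligases looked up, were not analysed here, as no feature carries their names.

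FBXO32 and TRIM63 were sparse, seldom with more than 1 UMI in a spot. FBXO32 was seen in 3.44% (2.67 to 4.34) of spots in fresh, 3.44% (2.76 to 4.24) in stored healthy, 7.14% (5.51 to 9.08) in 2-week and 7.42% (6.22 to 8.75) in 16-week muscle. TRIM63 was seen in 1.54%, 1.76%, 3.04% and 5.10% of spots. Spots were deepest at 2 weeks, with a median of 3057.5 non-mitochondrial UMIs, against 1833 (fresh), 2557 (stored healthy) and 1485.5 (16 weeks). At an equal depth of 500 non-mitochondrial UMIs per spot, which left out 260, 91, 44 and 226 shallower spots of the fresh, stored healthy, 2-week and 16-week sections, the expected shares for FBXO32 were 0.989%, 0.703%, 1.25% and 2.04%, and those for TRIM63 0.428%, 0.370%, 0.528% and 1.55%. The 16-week section was thus highest at equal depth for both genes, although a share of a few percent at this depth rests on few UMIs.

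At 16 weeks, spots were also split by their myosin UMIs. Of the 1426 spots with at least 10 UMIs of MYH1, MYH4 and MYH7, 124 (8.70%, 7.28 to 10.3) had FBXO32, against 4 of 300 (1.33%, 0.364 to 3.38) with fewer. TRIM63 was in 88 of 1426 (6.17%, 4.98 to 7.55) and in 0 of 300, which allows a share of up to 1% by 3 counts and has an exact upper limit of 1.22%. The median depth of these spots was 1732.5 and 534.5 UMIs, and a share of spots depends on depth. By level, FBXO32 stood at 4.87 and 1.92 per 100000, a log2 ratio of 1.35 (-0.04 to 3.24) whose interval includes 0. TRIM63 stood at 3.21 and 0 per 100000, from 93 and 0 UMIs. The lower limit of its log2 ratio was 0.83, for counting error only. Within spots with at least 10 myosin UMIs, the 16-week log2 ratio to stored healthy was 1.78 for FBXO32 and 2.18 for TRIM63. Both genes were seen in the same spot 11 times at 16 weeks, 2 times in each healthy section and 0 times at 2 weeks. Spots with FBXO32 and spots with TRIM63 numbered 128 and 88 at 16 weeks and 61 and 26 at 2 weeks. In fresh muscle they numbered 67 and 30, and in stored healthy muscle 84 and 43. Whether the shared spots exceed what these numbers and spot depth would give was not tested.

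Other tissue differed between the sections as well. The summed level of 10 macrophage genes was 10.2 in fresh, 34.2 in stored healthy, 35.7 in 2-week and 79.4 in 16-week muscle. Of 9 with at least 50 UMIs, 1 (CD74) was higher and 3 were lower at 2 weeks, against 28.5% and 9.26% of all genes. At 16 weeks 7 were higher and 1 (LYZ) was lower, against 47.6% and 7.92%. For 7 connective tissue genes the summed levels were 277, 845, 2037 and 1281 in the same order of sections. COL3A1 and COL1A2 gave most of the 2-week sum, with levels of 944 and 560. DCN and LUM were instead highest at 16 weeks, at 358 and 145. For 3 adipose genes, of which 1 was at 0 everywhere, the sums were 67.9, 58.2, 93.6 and 193. LPL gave nearly all of the adipose sum, with levels of 67.9, 58.0, 93.5 and 192. ADIPOQ had 2, 13, 2 and 43 UMIs in the same order, so it was not higher at 2 weeks. The fast muscle markers were lowest at 16 weeks and the sum of the slow ones was lowest in the fresh section. Of the slow markers, TNNI1 was instead highest in the fresh section, and MYL2 and MYOZ2 were lowest at 2 weeks. The part of these differences in the section comparisons that follow was not tested.

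The summed proteasome level per non-mitochondrial UMI differed little between the sections. It was 542 (534 to 549) in fresh, 491 (486 to 497) in stored healthy, 518 (510 to 527) in 2-week and 478 (471 to 486) in 16-week muscle. The log2 ratios were 0.08 (0.05 to 0.11) at 2 weeks, -0.04 (-0.07 to -0.01) at 16 weeks and 0.14 (0.11 to 0.17) in the fresh section. These depend on the denominator: with UMIs of all genes they were 0.46 at 2 weeks and 0.33 at 16 weeks, and relative to the median gene -0.16 and -0.58. Of 31 proteasome genes with at least 50 UMIs, 4 were higher and 0 lower at 2 weeks, 3 higher and 1 lower at 16 weeks, and 8 higher and 1 lower in the fresh section. Over all genes, 28.5% were higher and 9.26% lower at 2 weeks, 47.6% and 7.92% at 16 weeks, and 24.3% and 17.5% in the fresh section. Hence 9.68% of the proteasome genes were higher at 16 weeks, and 2 of these 3 are the non-subunits PSMC3IP and PSME3IP1. Relative to the median gene, 16 proteasome genes were lower and 2 higher at 16 weeks, where 21.9% of all genes were lower and 22.3% higher.

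**Figure D2:**
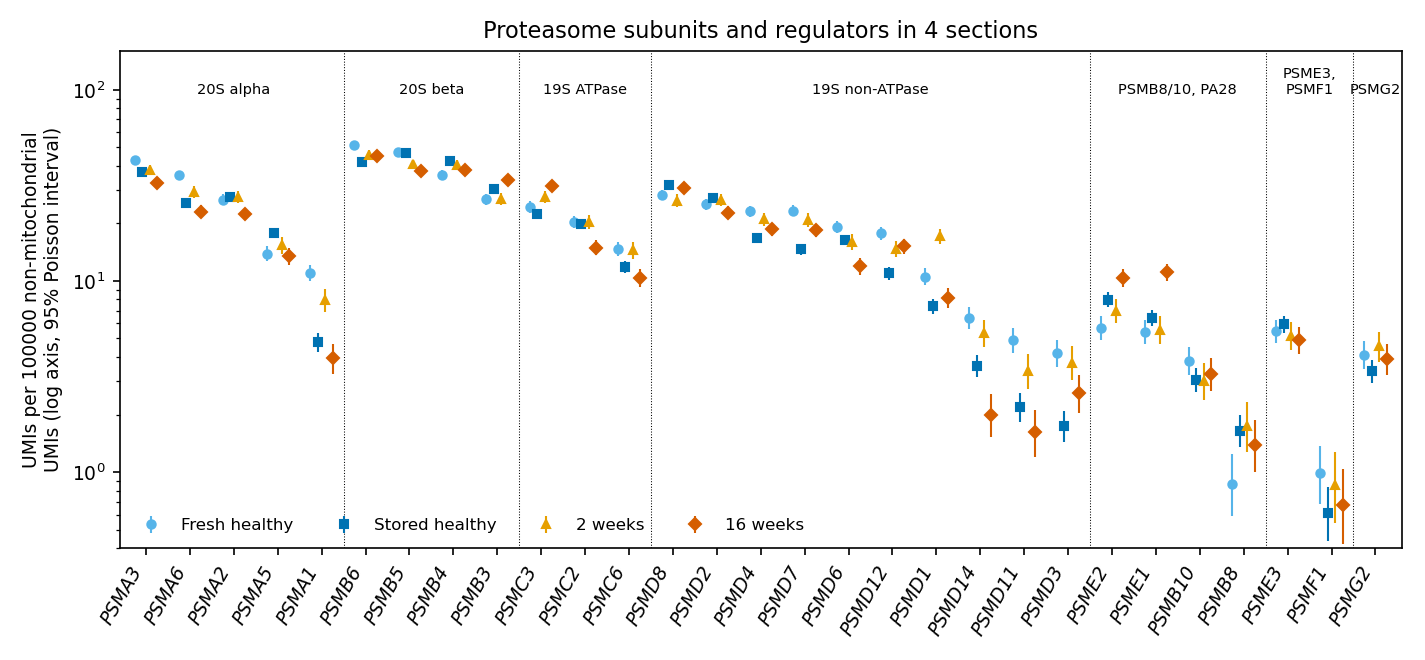
Levels of the 29 proteasome subunits, regulators and chaperones with at least 50 UMIs, in UMIs per 100000 non-mitochondrial UMIs on a log axis, grouped by role, with 95% Poisson intervals. Most core and cap subunits stay close together over the 4 sections, PSMA1 and PSMD14 are high in the fresh and low in the 16-week section, and PSME1 is highest at 16 weeks (11.1).

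Of the inner beta ring, which holds the active sites, the sum stood at nearly the same level in all sections, and single subunits differed. PSMB6 and PSMB5, the caspase-like and chymotrypsin-like active subunits, had log2 ratios at 16 weeks of 0.10 (0.00 to 0.19) and -0.31 (-0.41 to -0.21). PSMB4, a structural beta subunit, had -0.15 (-0.25 to -0.05). The 4 beta subunits together stood at 162 in fresh, 162 in stored healthy, 154 in 2-week and 155 in 16-week muscle. The outer alpha ring, through which substrates enter, was lower at 16 weeks, at 95.6 (92.2 to 99.1) against 113 (110 to 115) in stored healthy muscle, a log2 ratio of -0.24 (-0.30 to -0.17), and all 5 alpha genes had a ratio below 0 there. PSMA5 had ratios of -0.22 at 2 weeks, -0.41 at 16 weeks and -0.36 in the fresh section, the stored healthy section being its highest.

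Most alpha and cap subunits with at least 50 UMIs had lower levels in stored healthy and 16-week muscle than in the other sections. Their intervals were not always separate, and PSMA5, PSMD6 and PSMD8 were among those with another order. The genes given here are examples of the more common order. PSMA1, an alpha subunit, had 392 UMIs in fresh, 304 in stored healthy, 214 in 2-week and 122 in 16-week muscle, or levels of 11.02, 4.78, 7.93 and 3.93. The fresh and 2-week sections stood apart from each other and from the lower 2, which overlapped. PSMD14, the deubiquitinase of the 19S lid that removes ubiquitin from substrates, had 228, 229, 144 and 62 UMIs, or levels of 6.41, 3.60, 5.33 and 2.00. Its 16-week ratio of -0.85 (-1.28 to -0.44) made it the proteasome gene that was lower at 16 weeks. PSMD11, a lid scaffold, had levels of 4.89, 2.18, 3.37 and 1.61, and PSMD3, another lid subunit, 4.19, 1.74, 3.74 and 2.58. For PSMD3, the 16-week interval overlapped those of the 2-week and stored healthy sections, and its 16-week ratio was 0.56.

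PSMD1 (Rpn2), the large scaffold of the 19S base, had the highest 2-week ratio of the proteasome genes with at least 50 UMIs. It had 375, 469, 463 and 253 UMIs in the fresh, stored healthy, 2-week and 16-week sections, or levels of 10.5, 7.37, 17.1 and 8.16. The 2-week section lay above the others, with a log2 ratio to stored healthy of 1.22 (1.03 to 1.41), and the 16-week ratio was 0.15 (-0.08 to 0.37). PSMD8, a lid subunit, was at the low end at 2 weeks with -0.28 (-0.40 to -0.15), and PSMD6 at 16 weeks with -0.45 (-0.63 to -0.28). PSME3, which forms a nuclear activator, differed little in any section, with ratios of -0.21 at 2 weeks, -0.28 at 16 weeks and -0.12 in the fresh section.

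Of the immunoproteasome and PA28 genes, the activator genes PSME1 and PSME2 were highest at 16 weeks and the inducible subunits PSMB8 and PSMB10 were not. PSMB8, PSMB10, PSME1 and PSME2 together had levels of 15.8 (14.5 to 17.1) in fresh, 19.1 (18.0 to 20.2) in stored healthy, 17.3 (15.8 to 18.9) in 2-week and 26.1 (24.3 to 27.9) in 16-week muscle, a 16-week log2 ratio of 0.45 (0.32 to 0.58), below the median gene at 0.54. PSME1 had 192, 407, 150 and 344 UMIs, with a 16-week ratio of 0.79 (0.58 to 1.01), and PSME2 had 202, 509, 189 and 321 UMIs, with 0.37 (0.17 to 0.58). The catalytic subunits PSMB8 and PSMB10 had ratios of -0.25 (-0.80 to 0.27) and 0.10 (-0.26 to 0.46), and PSMB8 was lowest in the fresh section, at -0.92 (-1.55 to -0.33). PSMB9 was not analysed here.

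PSMC3IP, a partner of the recombinases and known from meiosis, had 14, 16, 6 and 43 UMIs in the fresh, stored healthy, 2-week and 16-week sections. Its 16-week log2 ratio of 2.46 (1.61 to 3.39) was the highest of all members. PSME3IP1, which binds the activator PSME3, had 40, 73, 29 and 80 UMIs and a ratio of 1.17 (0.69 to 1.65). Both genes overlapped between the other 3 sections. Without them, the 16-week ratio of the summed proteasome level was -0.05 (-0.08 to -0.02).

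**Figure D3:**
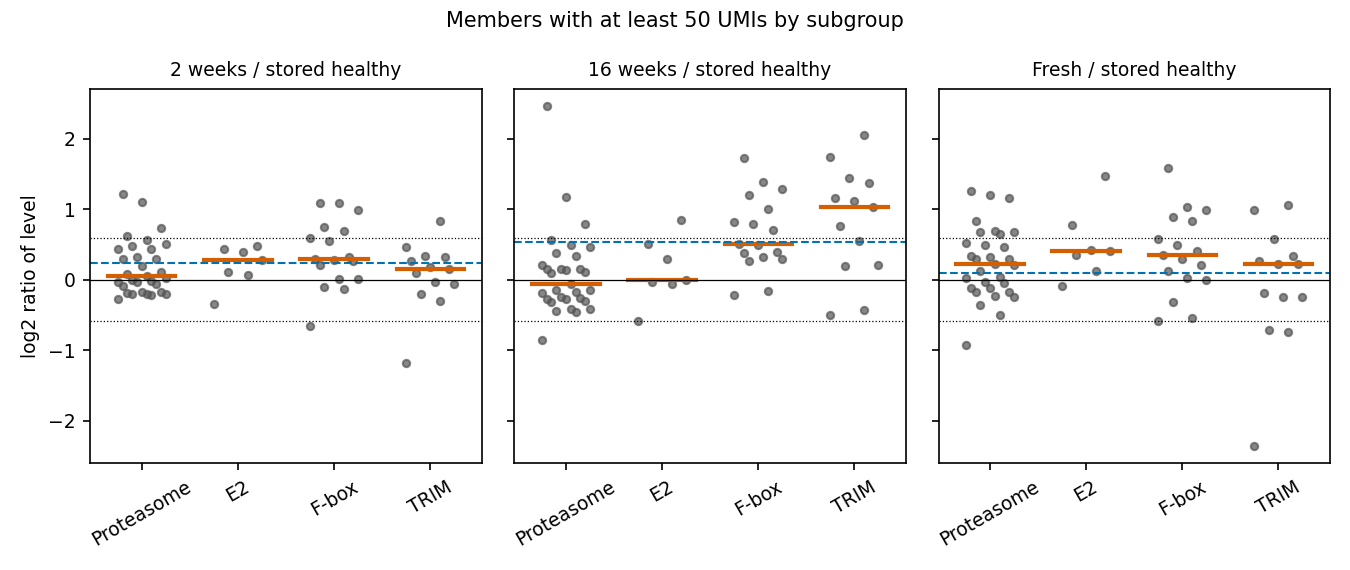
Log2 ratio of level to stored healthy muscle for the 68 members with at least 50 UMIs (points), by subgroup, in the 2-week, 16-week and fresh sections; orange bars are subgroup medians, the blue dashed line is the median of all 5280 genes and dotted lines mark 1.5-fold. At 16 weeks the proteasome (median -0.07) and E2 genes (0.00) lie below the all-gene median of 0.54, the F-box genes (0.50) near it and the TRIM genes (1.03) above it.

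Of the E2 UMIs, 78.0% belonged to UBE2B (Rad6B), an E2 long studied in wasting muscle, so that the summed E2 level follows this gene. UBE2B had 4779, 6460, 3337 and 3026 UMIs in the fresh, stored healthy, 2-week and 16-week sections, or levels of 134, 101, 124 and 97.5. Fresh and 2-week muscle were higher, with log2 ratios of 0.40 (0.35 to 0.46) and 0.28 (0.22 to 0.35), and 16-week muscle overlapped stored healthy muscle, at -0.06 (-0.12 to 0.01). Beside a median gene at 0.54, the E2 genes without UBE2B had a summed 16-week ratio of 0.38 (0.27 to 0.49). UBE2Q1 contributed to this with 289, 548, 323 and 478 UMIs, and its ratio was 0.47 (0.27 to 0.68) at 2 weeks and 0.84 (0.66 to 1.02) at 16 weeks. Among 7 E2 genes with at least 50 UMIs, UBE2Q1 was the one that was higher at 16 weeks (14.3%), and 1 was lower. Of all genes, 47.6% were higher and 7.92% lower there.

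The remaining E2 genes differed less after tenotomy. UBE2K, which builds lysine-48-linked chains, had a ratio of 0.44 (0.25 to 0.63) at 2 weeks and 0.00 (-0.21 to 0.20) at 16 weeks. UBE2R2, an E2 of cullin ligases, was high in the fresh section, with 182, 117, 65 and 81 UMIs and a fresh ratio of 1.48 (1.13 to 1.82). UBE2N, which makes lysine-63-linked chains, had 51, 68, 31 and 22 UMIs and counted as lower at 16 weeks with a ratio of -0.59, although its interval of -1.36 to 0.12 includes 0. UBE2H (0.30) and UBE2J1 (-0.03), the latter an E2 of the endoplasmic reticulum, were within 1.5-fold at 16 weeks.

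The summed F-box level was lowest in stored healthy muscle. It was 57.5 (55.1 to 60.1) in fresh, 41.0 (39.5 to 42.6) in stored healthy, 54.5 (51.8 to 57.4) in 2-week and 57.6 (54.99 to 60.4) in 16-week muscle. The log2 ratios of these sums were 0.49, 0.41 and 0.49 in the fresh, 2-week and 16-week sections, and the 16-week sum lay at -0.050 relative to the median gene. Of 17 F-box genes with at least 50 UMIs, 6 were higher and 1 lower at 2 weeks, 8 higher and 0 lower at 16 weeks and 5 higher and 0 lower in the fresh section. The 16-week share of 47.1% is close to the 47.6% of all genes, and the all-gene shares were 28.5% at 2 weeks and 24.3% in fresh muscle. Lower were 9.26% of all genes at 2 weeks, 7.92% at 16 weeks and 17.5% in fresh muscle. The FBXO genes, which include the atrophy F-box genes, had summed levels of 12.1, 9.08, 13.7 and 19.3. Their ratio was 1.09 (0.92 to 1.26) at 16 weeks and 0.42 (0.23 to 0.60) in the fresh section. The FBXL genes include FBXL22, the F-box gene with most UMIs. Their ratio was 0.18 (0.06 to 0.30) at 16 weeks and 0.50 (0.39 to 0.60) in the fresh section. The like F-box sums of fresh and 16-week muscle thus rest in part on different genes.

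FBXO8 was the second FBXO gene to stand apart at 16 weeks. It had 49, 131, 84 and 167 UMIs in the fresh, stored healthy, 2-week and 16-week sections, or levels of 1.38, 2.06, 3.11 and 5.38. The 16-week section was separate from the 2-week section, and this from the healthy sections, with ratios to stored healthy of 1.39 (1.05 to 1.73) and 0.60 (0.18 to 1.0). FBXW11 (beta-TrCP2), an SCF receptor for phosphorylated targets such as beta-catenin, was low in stored healthy muscle, with 107, 103, 93 and 101 UMIs and ratios of 0.89 (fresh), 1.09 (2 weeks) and 1.01 (16 weeks). FBXO10, with 84, 50, 45 and 43 UMIs, was also lowest in stored healthy muscle, at ratios of 1.59 in fresh, 1.09 in 2-week and 0.82 in 16-week muscle.

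FBXL22, an F-box protein of the sarcomeric Z-disc, was high in fresh muscle. It had 825, 725, 375 and 304 UMIs, or levels of 23.2, 11.4, 13.9 and 9.80, and the fresh and 2-week sections stood apart from each other and from the lower 2. FBXL5, the iron-regulated F-box protein, had a fresh ratio of -0.55 (-0.84 to -0.27) and a 16-week ratio of 0.50 (0.27 to 0.73). FBXL4, a mitochondrial protein, was highest at 2 weeks at 0.69 (0.43 to 0.94). FBXL15 was the F-box gene that was lower at 2 weeks, with 40 UMIs against 149 in stored healthy muscle, a ratio of -0.66 (-1.2 to -0.15). FBXO7, with 22, 32, 27 and 22 UMIs, had 0.99 (0.20 to 1.78) at 2 weeks, and FBXW8 had 0.27 (-0.03 to 0.56) at 16 weeks.

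**Figure D4:**
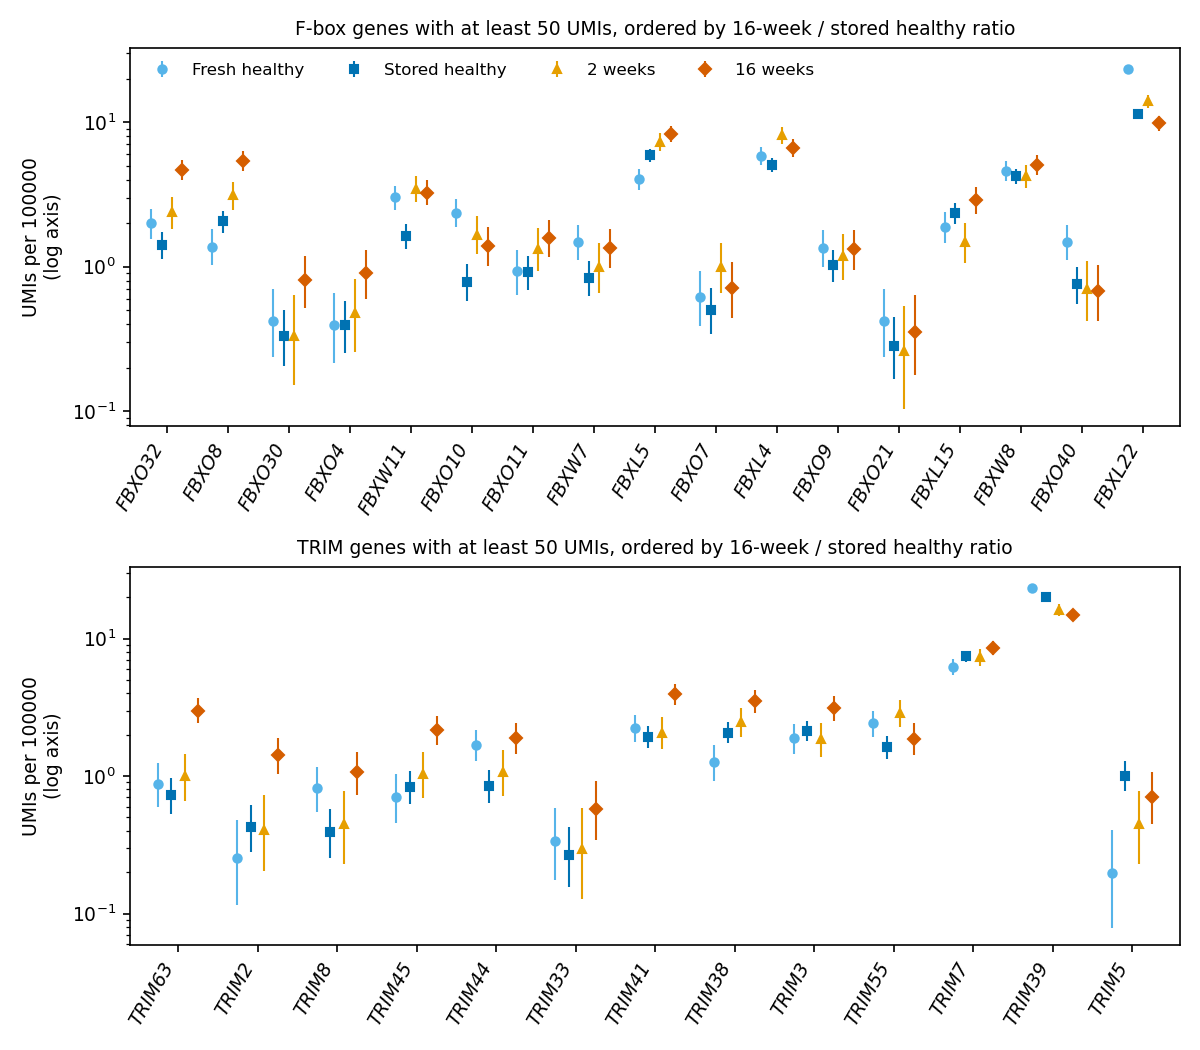
Levels of the 17 F-box and 13 TRIM genes with at least 50 UMIs, in UMIs per 100000 non-mitochondrial UMIs on log axes, ordered by the ratio of 16-week to stored healthy muscle, with 95% Poisson intervals. FBXO32, FBXO8, TRIM63 and TRIM2 are highest in the 16-week section, and TRIM39 is lowest there (14.9).

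Of 13 TRIM genes with at least 50 UMIs, 10 were highest at 16 weeks, where 54.1% of all genes were highest. Their summed level was 43.1 (41.0 to 45.4) in fresh, 40.4 (38.9 to 42.0) in stored healthy, 37.9 (35.6 to 40.3) in 2-week and 47.7 (45.3 to 50.2) in 16-week muscle. Of the TRIM UMIs, 45.5% belonged to TRIM39, and without it the 16-week log2 ratio of the sum was 0.69 (0.57 to 0.80) in place of 0.24 (0.15 to 0.33). At 16 weeks 8 TRIM genes (61.5%) were higher and 0 lower, at 2 weeks 1 and 1, and in the fresh section 2 and 3. Over all genes, 47.6% were higher at 16 weeks, 28.5% at 2 weeks and 24.3% in fresh muscle, and 7.92%, 9.26% and 17.5% were lower. Relative to the median gene, 5 TRIM genes were higher and 2 lower at 16 weeks, against 22.3% and 21.9% of all genes.

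TRIM2, a ligase known for its role in axons, had 9, 27, 11 and 44 UMIs in the fresh, stored healthy, 2-week and 16-week sections and a 16-week ratio of 1.74 (1.02 to 2.49). TRIM8, with 29, 25, 12 and 33 UMIs, had 1.44 (0.64 to 2.25) at 16 weeks and 1.05 (0.23 to 1.89) in the fresh section. TRIM44, with 60, 54, 29 and 59 UMIs, was likewise high in both, at 1.16 (0.61 to 1.72) and 0.99 (0.44 to 1.55). TRIM41, with 80, 123, 56 and 122 UMIs, was separate from the other sections at 16 weeks, at 1.03 (0.65 to 1.40). TRIM39 went the other way, with levels of 23.4, 20.01, 16.2 and 14.9, so that both tenotomy sections were below both healthy sections. TRIM7, which binds the glycogen primer glycogenin, was at 6.27, 7.44, 7.30 and 8.54, a 16-week ratio of 0.20 (-0.02 to 0.42). TRIM3 had ratios of -0.21 (-0.70 to 0.27) at 2 weeks and 0.55 (0.16 to 0.94) at 16 weeks.

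TRIM5, TRIM38 and TRIM2 were the 3 TRIM genes that were lower in fresh muscle (23.1%), where 17.5% of all genes were. The first 2 are tied to innate immunity, and TRIM2 is described above for its role in axons. TRIM5, a restriction factor of retroviruses, had 7, 64, 12 and 22 UMIs in the fresh, stored healthy, 2-week and 16-week sections, and a fresh ratio of -2.35 (-3.72 to -1.23). Stored healthy muscle was its highest section, and the 2-week ratio was -1.18 (-2.20 to -0.27). TRIM38, an interferon-induced regulator of this signaling, had 45, 132, 67 and 109 UMIs, with -0.71 (-1.23 to -0.21) in the fresh and 0.76 (0.38 to 1.14) in the 16-week section. Macrophage genes were at 10.2 in the fresh section against 34.2 to 79.4 in the others, and their part in this was not tested.

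Over the 4 subgroups, 11 of 68 members (16.2%) were higher and 2 lower at 2 weeks, 20 (29.4%) higher and 2 lower at 16 weeks, and 17 (25%) higher and 4 lower in the fresh section. The shares of all genes that were higher were 28.5%, 47.6% and 24.3%, and those that were lower 9.26%, 7.92% and 17.5%. At 2-fold, 4 members were higher and 1 lower at 2 weeks, where 11.9% and 3.96% of all genes were. At 16 weeks 14 were higher and 0 lower, against 27.6% and 3.45% of all genes, and in fresh muscle 7 and 1, against 10.3% and 9.41%. With UMIs of all genes as the denominator, 33 members were higher at 2 weeks and 35 at 16 weeks. No share of all genes is given on that scale, so these 2 counts say nothing particular to the members. Member medians of 0.19 at 2 weeks and 0.28 at 16 weeks lay below those of all genes, 0.24 and 0.54, and in the fresh section the member median of 0.28 lay above 0.09. Relative to the median gene, 11 members were higher and 22 lower at 16 weeks, against 22.3% and 21.9% of all genes. The 22 lower members included 16 proteasome genes. On that scale 6 were higher and 2 lower at 2 weeks, against 18% and 16.2% of all genes, and 15 and 7 in fresh muscle, against 20.5% and 20.6%. Just past the 1.5-fold limit at 16 weeks was FBXW7 at 0.70 and just short of it PSMD3 at 0.56, and at 2 weeks these places were held by FBXO8 at 0.60 and PSMD14 at 0.57.

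The rest of the pathway was read from fixed lists. Of 4 ubiquitin and E1 genes with at least 50 UMIs, 0 were higher and 0 lower at 2 and 16 weeks. Of 5 cullin ligase core genes, 1 was higher at 16 weeks, CUL4B, a cullin scaffold, with 25 UMIs in stored healthy and 35 in 16-week muscle and a ratio of 1.52 (0.74 to 2.32). NEDD8, the ubiquitin-like activator of cullins, had 0.06 (-0.03 to 0.15). Among 16 HECT and RING ligases and ligase adaptors of muscle, 7 were higher and 0 lower at 16 weeks, and 6 higher and 1 lower at 2 weeks. Of all genes, 47.6% were higher and 7.92% lower at 16 weeks, and 28.5% and 9.26% at 2 weeks. Relative to the median gene, 3 of them were higher and 4 lower at 16 weeks, against 22.3% and 21.9% of all genes. KLHL40, a stabilizer of thin filament proteins, was the lower one at 2 weeks, at -0.64 (-0.85 to -0.44). Its 16-week ratio was -0.27 (-0.45 to -0.09). Of 12 deubiquitinases, 5 were higher and 0 lower at 2 weeks, where 28.5% and 9.26% of all genes were. At 16 weeks 2 were higher and 2 lower, against 47.6% and 7.92% of all genes. The lower ones were UCHL1 at -1.06 (-1.68 to -0.49) and USP28 at -0.88 (-2.13 to 0.21). USP14, a deubiquitinase of the proteasome, had 0.45 (-0.15 to 1.04).

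Transcription factors of the pathway were among 8 partner genes, of which 5 were higher and 0 lower at 16 weeks, and 2 higher and 1 lower relative to the median gene. Over all genes, 47.6% were higher and 7.92% lower at 16 weeks, and 22.3% and 21.9% relative to the median gene. FOXO3, which activates FBXO32 and TRIM63 in wasting muscle, had 14, 27, 17 and 52 UMIs in the fresh, stored healthy, 2-week and 16-week sections and a 16-week ratio of 1.98 (1.29 to 2.71). NFE2L2 (Nrf2) had 72, 93, 57 and 164 UMIs, a ratio of 1.86 (1.48 to 2.24). NFE2L1 (Nrf1), the factor that drives proteasome subunit genes, had 1314, 1945, 1217 and 1690 UMIs, with 0.56 (0.46 to 0.67) at 2 weeks and 0.83 (0.74 to 0.93) at 16 weeks. VCP, which extracts ubiquitinated proteins, had 0.44 (0.34 to 0.55) and 0.11 (0.01 to 0.22).

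Within sections, members were compared between groups of spots, which are not replicates. Spots with at least 5 UMIs of macrophage genes were set against spots with 0, that is 99 and 1575 spots in stored healthy, 46 and 478 in 2-week and 136 and 840 in 16-week muscle, with the fresh section left out for want of such spots. The summed level of the immunoproteasome and PA28 genes was higher where macrophage genes were. Its log2 ratios were 0.83 (0.55 to 1.10) in stored healthy, 0.71 (0.24 to 1.16) in 2-week and 0.39 (0.06 to 0.71) in 16-week muscle. The sum of all proteasome genes without the 2 non-subunits had 0.20 (0.14 to 0.26), -0.22 (-0.32 to -0.12) and 0.01 (-0.07 to 0.08). The median of all genes between these spots was 0.25, 0.14 and 0.14 in the same order. Macrophage-marker spots were deeper, with median depths of 3948 against 2407, 4226.5 against 2761.5 and 2343.5 against 1088.5 UMIs, and the part of depth was not tested. Of members with at least 50 UMIs in these spots, 14 of 48 were higher and 5 lower in stored healthy muscle, where 31.8% and 13.3% of all genes were. These counts were 6 and 2 of 36 at 2 weeks, against 25.2% and 12.9% of all genes, and 3 and 6 of 39 at 16 weeks, against 25.5% and 13.4%.

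Single members in these spots varied by section. PSMB8 had 19 UMIs in macrophage-marker and 40 in macrophage-free spots of stored healthy muscle, a log2 ratio of 1.91 (1.04 to 2.73), and 2.38 (1.08 to 3.65) at 2 weeks. PSME1, which was highest at 16 weeks, had 0.67 (0.15 to 1.16) in stored healthy but -0.04 (-0.59 to 0.49) in 16-week muscle. In macrophage-free spots its level was 5.64 in stored healthy and 10.99 in 16-week muscle. TRIM38, which is outside the proteasome, had ratios of 1.79 (1.05 to 2.49) in stored healthy and 1.41 (0.70 to 2.10) in 16-week muscle. UBE2B was lower in macrophage-marker spots in all 3 sections, at -0.33, -0.43 and -0.52. FBXO32 was lower there at 16 weeks, with 5 UMIs against 63 and a ratio of -1.93 (-3.61 to -0.64), and TRIM63 had 8 against 41, or -0.64 (-1.94 to 0.47).

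**Figure D5:**
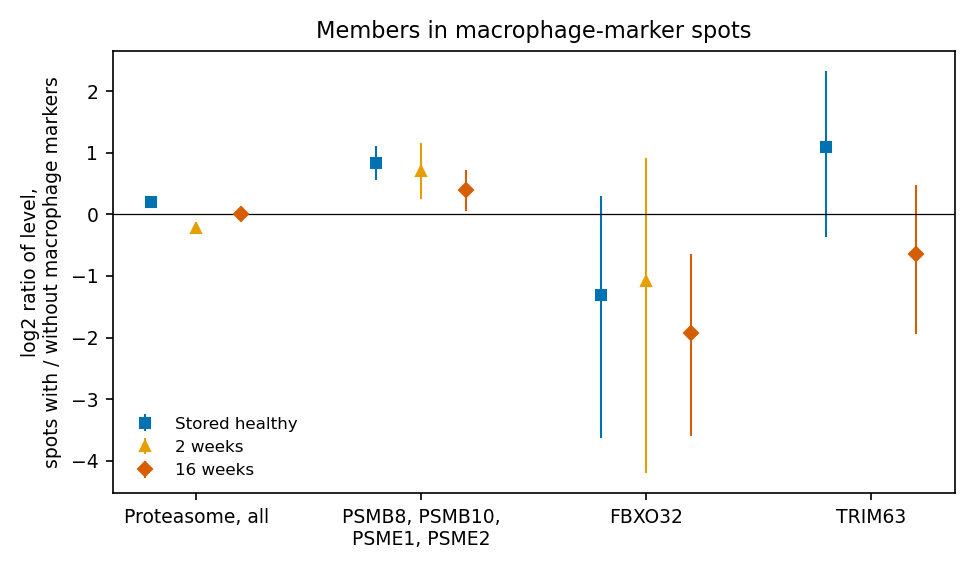
Log2 ratio of level between spots with at least 5 and spots with 0 macrophage marker UMIs in the stored healthy, 2-week and 16-week sections, with 95% intervals. The sum of the 4 immunoproteasome and PA28 genes lies above 0 in each section (0.83, 0.71 and 0.39). The sum labelled as all proteasome genes leaves out PSMC3IP and PSME3IP1 and includes the 4 immunoproteasome and PA28 genes. That sum lies nearer to 0, and FBXO32 lies below 0 at 16 weeks (-1.93). TRIM63 had 0 UMIs in the 2-week macrophage-marker spots and has no point.

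Slow and fast fiber spots were told apart by the share of MYH7 among myosin heavy chain UMIs, over 0.67 or under 0.33. In stored healthy muscle, 814 slow spots had a proteasome level of 520 against 461 in 800 fast spots (without PSMC3IP and PSME3IP1), a log2 ratio of 0.17 (0.13 to 0.21), and the immunoproteasome and PA28 genes had 0.54 (0.34 to 0.75). The median of all genes between these spots was 0.18, macrophage markers had 1.12 (0.97 to 1.27) and connective tissue markers 1.08 (1.05 to 1.11), and their part in these ratios was not tested. At 16 weeks, 808 slow and 133 fast spots had 473 and 479, a ratio of -0.02 (-0.10 to 0.07). The fresh and 2-week sections held only 32 and 22 slow spots, with ratios of 0.10 (-0.05 to 0.24) and 0.13 (-0.01 to 0.27). FBXO32 stood at 1.19 in slow and 1.82 in fast spots of stored healthy muscle and 4.82 and 5.90 at 16 weeks, where the ratios of -0.61 (-1.36 to 0.13) and -0.29 (-1.07 to 0.58) both include 0. In slow and in fast spots, the 16-week level of FBXO32 was above the stored healthy level. The fast spots held 36 FBXO32 UMIs in stored healthy and 16 in 16-week muscle, and the part of fiber type was not tested.

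Spots with at least 3 UMIs of the MYH8 and MYL4 genes, which mark regenerating fibers, were compared with spots that had 0. The immunoproteasome and PA28 genes had a log2 ratio of 0.72 (0.38 to 1.05) in 2-week muscle and 0.22 (-0.20 to 0.62) and 0.39 (-0.03 to 0.78) in stored healthy and 16-week muscle. The proteasome genes without PSMC3IP and PSME3IP1 had -0.16 (-0.23 to -0.08), 0.16 (0.08 to 0.24) and 0.12 (0.02 to 0.22) in the same order, beside all-gene medians of -0.07, 0.15 and 0.03. In that order, macrophage markers had 0.06, 1.57 and 1.19 and connective tissue markers 0.24, 0.71 and 0.82. Median depths were 5059 against 2886, 3211.5 against 2498 and 2911 against 1374 UMIs, and the part of markers and depth was not tested. Between collagen-rich and collagen-free spots, proteasome ratios, again without PSMC3IP and PSME3IP1, were 0.07 (0.01 to 0.12) in fresh, 0.16 (0.03 to 0.29) in stored healthy and 0.01 (-0.21 to 0.25) in 16-week muscle, and with both genes the last was -0.01 (-0.24 to 0.22). All-gene medians between collagen-rich and collagen-free spots were 0.04, -0.01 and -0.26 in the fresh, stored healthy and 16-week sections. Collagen-free spots were shallower, with median depths of 1052.5 against 2401, 1139 against 2659 and 186.5 against 1687 UMIs in that order. The part of depth was not tested here either. Only 7 collagen-free spots were found at 2 weeks, where no ratio was taken.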

How the data were processed

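Sections of 4 rabbit supraspinatus muscles were measured with 10x Visium 3′ libraries. The authors deposited raw UMI counts of each gene in each tissue-covered spot, not normalized, made by Space Ranger 1.2.0 from reads on the rabbit build OryCun2.0 (Ensembl genes). They had matched the images manually in Loupe. The sample groups follow the labels. The lists of spot positions were not used. A level is a sum of UMIs over spots per 100000 non-mitochondrial UMIs, where 37 mitochondrial genes were recognized by their consecutive identifiers. Levels are not divided by gene length and depend on how well the annotation covers each 3′ end, so they were not compared between genes. How reads shared with near-identical copies were counted is not given in the sources used here.

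Because each condition is 1 section, p-values and tests are absent. Sums carry exact Poisson, shares exact binomial (Clopper-Pearson) and ratios exact conditional 95% intervals, which cover counting error only and neither animals nor sections. The ratio intervals were checked on simulated Poisson counts, the model they assume, so the check covers the computation only. Over spots, the variance of proteasome counts was 1.20 (16 weeks) to 1.55 (2 weeks) times the Poisson value. Counts of higher or lower genes use 1.5-fold among genes with at least 50 UMIs over the 4 sections. Shares at equal depth are those expected if 500 UMIs were drawn from each spot without replacement, and no doublet caller was run on spots. Genes named are the 9 atrophy ligases, the immunoproteasome and PA28 genes, and in each subgroup the 3 members with most UMIs and the 3 highest and 3 lowest of each comparison. FBXO10, PSMB8, TRIM41 and other names repeated outside their place in that rule, and the pathway genes given with values, were chosen after their values were seen. The members and lists were chosen with earlier results of these data known. Alternatives were other denominators, centring on the median gene, other minimums, folds and spot groups. No sequences or coordinates are given, since none of the build OryCun2.0 was used here. Software was pandas 2.3.3, scipy 1.17.1, numpy 2.4.6 and matplotlib 3.10.9 under Python 3.11.15.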

Additional observations from a re-analysis of the deposited data

How the results depend on the processing

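No paired analysis was possible because each condition is 1 section and no result comes from a test. For the same reason no replicate could be left out. With UMIs of all genes as the denominator, which brings in the lower mitochondrial share after tenotomy, the summed log2 ratios at 2 weeks were 0.46 (proteasome), 0.68 (E2), 0.79 (F-box) and 0.29 (TRIM), and at 16 weeks 0.33, 0.41, 0.85 and 0.61, with 33 members higher and 1 lower at 2 weeks and 35 and 0 at 16 weeks. Centred on the median gene they were -0.16, 0.062, 0.17 and -0.33 at 2 weeks, -0.58, -0.49, -0.050 and -0.30 at 16 weeks, and 0.049, 0.29 and 0.40 for the proteasome, E2 and F-box genes in the fresh section, with 6 members higher at 2 weeks, 11 higher and 22 lower at 16 weeks and 7 lower in the fresh section. Without the 50 most abundant nuclear genes in the denominator, the 16-week ratios were -0.36, -0.27, 0.17 and -0.078, with 12 members lower. In spots without collagen UMIs they were 0.12, -0.22, 0.85 and 0.46 at 16 weeks, with 33 members higher and 9 lower, and 0.24, 0.26, 0.67 and 0.37 in the fresh section, with 18 lower; this was not run at 2 weeks, where only 7 such spots remain, and in these 86 spots at 16 weeks FBXO32 had 1 UMI and a ratio of 0.09. Spots without collagen UMIs were shallow, with median depths of 1052.5 (fresh), 1139 (stored healthy) and 186.5 (16 weeks) non-mitochondrial UMIs. The cause of the moves between settings was not tested. Shares of all genes are given above for the centred counts only. The other counts of members here have none beside them and say nothing particular to the members.

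At 2-fold, 4 members were higher and 1 lower at 2 weeks, 0 lower at 16 weeks, and 7 higher and 1 lower in the fresh section. With at least 200 UMIs, 1 was lower at 2 weeks, 10 higher and 1 lower at 16 weeks, and 11 higher and 2 lower in the fresh section. In spots with at least 500 non-mitochondrial UMIs, 1 was lower at 16 weeks. For this count and those with at least 200 UMIs, no share of all genes is given. The following were chosen after seeing the data. Without UBE2B the E2 ratios were 0.35, 0.38 and 0.27 at 2 weeks, at 16 weeks and in the fresh section, and without TRIM39 the TRIM ratios were 0.087, 0.69 and -0.051. With a macrophage minimum of 3 UMIs, FBXO32 at 2 weeks had a ratio of 0.21 between macrophage-marker and macrophage-free spots, against -1.08 (-4.20 to 0.92) from 2 and 26 UMIs. Within spots with at least 10 myosin UMIs, and without the spot with most UMIs, the summed ratios stayed within their counting intervals. The 16-week ratios of FBXO32 and TRIM63 ranged over the other denominators, depth and myosin settings and centring from 1.19 to 2.09 and from 1.51 to 2.42. The planned values for TRIM54, TRIM32 and TRIM72 could not be given without a feature. Depth limits the single ligases: 3 UMIs, the limit that a count of 0 allows, correspond to a level of 0.0471 to 0.111.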

Other observations

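Spots with a UMI of FBXO32 or TRIM63 had a median of 2414 (fresh), 2817 (stored healthy), 3351 (2 weeks) and 2689 (16 weeks) non-mitochondrial UMIs. In spots with neither gene the medians were 1801, 2541, 3015 and 1362, so that the 2 kinds of spot differed most in depth at 16 weeks.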
